A study of Mus musculus with 43 samples.

Results

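The Slc25 genes encode the mitochondrial carriers, a family of transporters most of which sit in the inner mitochondrial membrane. Members were taken as the rows of the count table whose symbol is Slc25a followed by a number and whose counts sum to at least 10 over all libraries. This gave 44 members among 54532 genes. A further 3 rows fit the symbol but not the minimum: Slc25a43 had 4 counts in 1 library, and Slc25a41 and Slc25a48 had 0 counts. Just inside the minimum were Slc25a54 with 11 and Slc25a31 with 17 counts. The inner membrane is closed to most charged molecules, so that nucleotides, phosphate, acids, amino acids, cofactors and metals cross it on such carriers. In brain endothelial cells (EC), which are often described as rich in mitochondria, the carriers link the ATP, redox and amino acid pools of the mitochondrion to those of the cytosol.

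The libraries were made from EC of untreated, unmodified inbred mice aged 2 months. The mice belonged to the long-inbred strains 129S1/SvImJ (9 libraries), A/J (5), C57BL/6J (6), DBA/2J (5) and NOD/ShiLtJ (6) and the recently wild-derived strains CAST/EiJ (6) and WSB/EiJ (6). Of 43 libraries, 16 were from female and 27 from male mice, and 21 were from cortex and 22 from hippocampus. Each title also carries the word high or low, which neither the labels nor the methods define. In female mice 15 of 16 libraries are titled high, in male mice 14 of 27. The cells were sorted as CD31+ CD45- CD11b- live cells, and no label names the mouse behind a library. The p-values therefore measure the spread between libraries, which may in part share an animal.

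Libraries held between 1626534 and 49372356 counts on genes (median 5790701). Female libraries were deeper (median 21242058) than male libraries (median 5257353). Reads on the rRNA-like genes Gm23935, Gm42418 and Gm26917 made up 1.59% to 12.1% of female and 12.97% to 29.3% of male libraries, so this share cannot be told apart from sex, while the depths of the sexes overlapped. The mean of log2(CPM + 1) over 15 endothelial markers was 9.30 ± 0.34 (SD, n = 43), where CPM is the count per 1000000 counts of a library after scaling between libraries. Pecam1, which encodes the CD31 used for sorting, ran from 446.0 to 1100 CPM (median 856.7). Of 8 microglial markers, 4 had a median of 0 CPM (Tmem119, Aif1, C1qb and Ptprc). The 10 astrocyte markers were present, with a list mean of 6.14 ± 0.66 (SD, n = 43) and a summed level from 1123 to 19792 CPM, most of it Slc1a2 (median 2690 CPM). The 10 pericyte markers were present too, with a list mean of 6.75 ± 0.59 (SD, n = 43). Their summed level ran from 1953 to 9552 CPM, highest in Rgs5 (median 3465 CPM). The neuronal and smooth muscle lists had means of 4.73 ± 0.91 and 3.91 ± 0.68 (SD, n = 43). The part of these lists in the results below was not tested unless a value is given. In bulk RNA, fewer cells of a type and less RNA per cell cannot be told apart.

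The promoters of the glutamate carrier Slc25a18 and the ATP-Mg/phosphate carrier Slc25a23 are shown because these are the members with the smallest p between regions and between title tags. Both sequences are upstream of the RefSeq and the GENCODE start, on the strand of the gene, in the GRCm38.p6 build. Slc25a23 lies at chr17:57043711-57059863 on the minus strand, and its shown bases at chr17:57059864-57060013. Slc25a18 lies at chr6:120773578-120794336 on the plus strand, and its shown bases at chr6:120773518-120773577. Its RefSeq start lies 190 bases from the GENCODE start, so that only 60 bases precede both. Capitals mark a GC box, searched as GGGCGG on both strands.
Slc25a23: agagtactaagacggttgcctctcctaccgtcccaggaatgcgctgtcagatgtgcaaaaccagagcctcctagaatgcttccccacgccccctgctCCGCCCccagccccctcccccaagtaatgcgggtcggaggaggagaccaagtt
Slc25a18: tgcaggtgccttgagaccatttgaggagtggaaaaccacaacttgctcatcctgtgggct

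A promoter was found in the RefSeq table for 34 of 44 members, which gave 44 windows, since some members have several starts. In the 250 bases before the start, GGGCGG was found in 31 of 44 windows (70.5%), against 32.7% of all 32851 windows in the table and 44.1% of those of coding genes. CCAAT was found in 21 windows (47.7%; 33.9% of all and 35.1% of coding) and TATAAA in 2 (4.55%; 12.4% of all and 11.2% of coding). The NRF1 motif, matched with 1 free base, was found in 2 (4.55%; 3.74% of all and 5.35% of coding). None of these 4 motifs contains another. The windows with TATAAA belonged to Slc25a18 and Slc25a21, and those with the NRF1 motif to Slc25a3 and Slc25a31. The TATAAA of Slc25a18 was not within its 60 bases shown above, which end just before the GENCODE start. No window of Slc25a18 held GGGCGG or CCAAT, while both windows of Slc25a23 held both. These are matches of letters and not binding sites.

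Together the members took 0.0614% to 0.131% of the counts of a library (median 0.101%), and their summed level was 990.7 CPM at the median (647.6 to 1442). A library held counts for 24 to 41 members (median 36). Of 44 members, 15 had counts in all 43 libraries and 36 had a median above 0 CPM. Carriers of nucleotides, phosphate and cofactors made up 63.9% of the family's CPM over 16 members. The 11 carriers of amino acids, acylcarnitine and S-adenosylmethionine made up 14.3%, the 4 of metals and glutathione 7.75%, the 4 of carboxylates 6.62%, the 6 with other or no settled substrates 4.33%, and the 3 uncoupling protein-like members 3.15%.

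**Figure D1:**
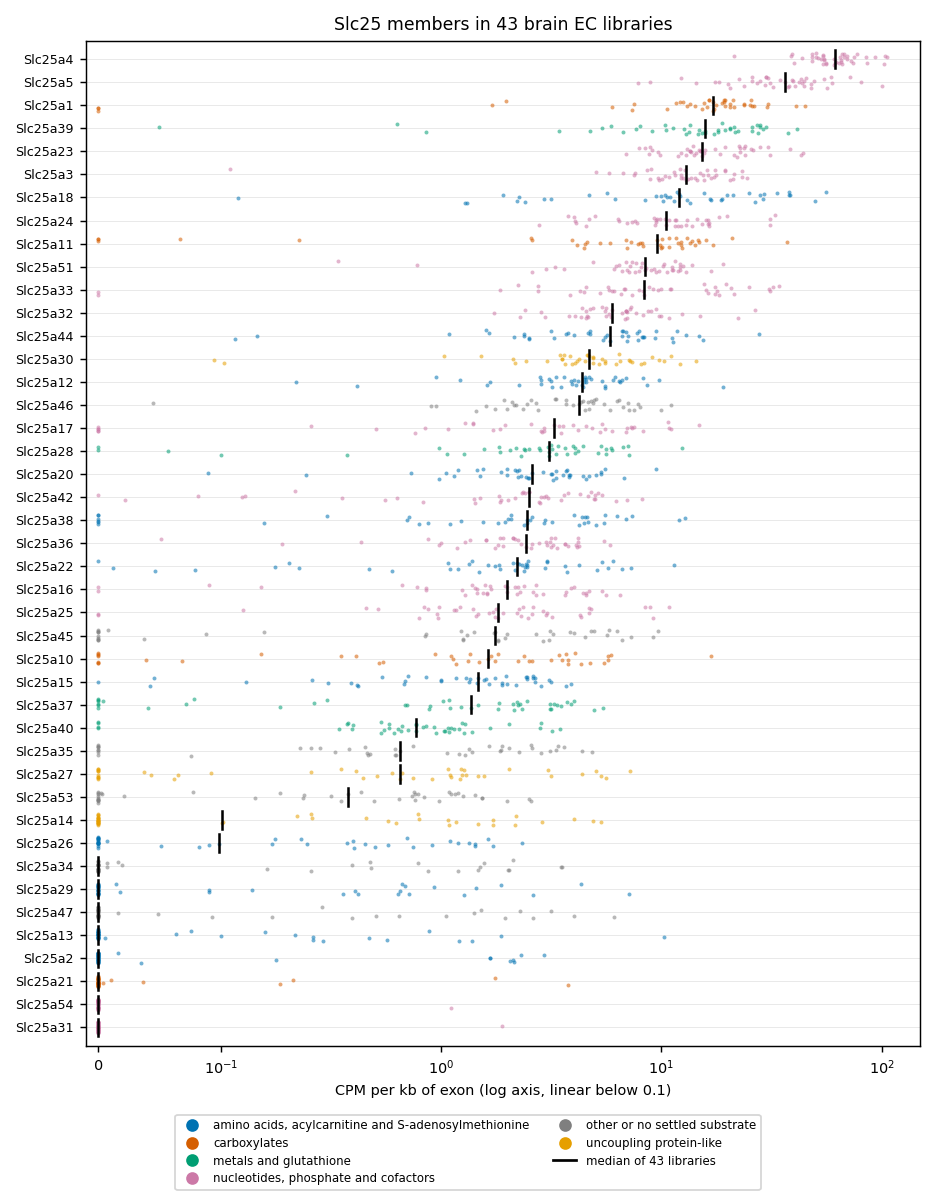
Level of 43 Slc25 members in 43 libraries of brain EC, in CPM per kb of exon on a log axis that is linear below 0.1. Points are libraries, coloured by the role of the member, and black bars are medians; Slc25a4 leads with a median of 61.1 CPM per kb, and 8 members have a median of 0.

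Levels of different genes were compared per kb of exon. The length counts all annotated exons of a gene merged, whichever transcripts the cells make, so orders between genes depend in part on annotation. Slc25a4, the ADP/ATP carrier of heart, muscle and brain, stood highest with a median of 61.1 CPM per kb (21.4 to 106.3). Its paralog Slc25a5, which carries ADP and ATP in dividing and many other cells, followed with 36.4 CPM per kb (7.85 to 100.1). Slc25a4 was the higher of the pair in 40 of 43 libraries, with a median ratio per kb of 1.65 (0.516 to 8.35). On the CPM scale, Slc25a4 took 14.9% of the family at the median (7.77% to 23.0%). The third ADP/ATP carrier, the germ cell member Slc25a31, had 17 counts, all in 1 male 129S1/SvImJ hippocampus library titled high.

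The next 8 by level per kb were the citrate carrier Slc25a1 (17.2 CPM per kb), the glutathione carrier Slc25a39 (15.7), Slc25a23 (15.4), the phosphate carrier Slc25a3 (12.99), Slc25a18 (12.1), the ATP-Mg/phosphate carrier Slc25a24 (10.5), the 2-oxoglutarate/malate carrier Slc25a11 (9.56) and the NAD+ carrier Slc25a51 (8.41). The neighbours in this order overlapped in their ranges over libraries. Ranked by median log2(CPM + 1) with no length, 8 of these 10 stayed among the highest 10. Reads of Slc25a11 and of Slc25a18 cannot be told apart from those of Rnf167 and Atp6v1e1, which overlap their exons on the opposite strand, since the strand setting of the counting is not given in the sources used here. The same limit holds for Slc25a25 with Naif1, Slc25a26 with Lrig1, Slc25a35 with Rangrf, Slc25a46 with B930094E09Rik and Slc25a21 with Pax9.

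Among the calcium-regulated ATP-Mg/phosphate carriers, Slc25a23 had the highest median per kb, Slc25a24 the next and Slc25a25 the lowest (1.82 CPM per kb). Slc25a23 was above Slc25a24 in 30 of 43 libraries and above Slc25a25 in 41 of 43. The order of the first pair differed by library group: Slc25a23 was the higher in 24 of 27 male but in 6 of 16 female libraries, a difference that was not tested. Slc25a54, a further member of this branch, had 11 counts in 1 library.

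The aspartate/glutamate carriers of the malate-aspartate shuttle were unequal. Slc25a12 (aralar) was above Slc25a13 (citrin) per kb in 43 of 43 libraries, with medians of 4.35 and 0 CPM per kb. Slc25a13 had counts in 16 libraries, and its highest level, 38.9 CPM, stood on 90 counts in the female WSB/EiJ cortex library titled high. Of the glutamate carriers, Slc25a18 was above Slc25a22 in 38 of 43 libraries, with medians of 12.1 and 2.22 CPM per kb.

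For metals and glutathione, Slc25a39 was above its paralog Slc25a40 in 39 of 43 libraries (medians 15.7 and 0.773 CPM per kb). Of the mitoferrins, which carry iron, Slc25a28 was above Slc25a37, the mitoferrin of red cell precursors, in 34 of 43 libraries (medians 3.09 and 1.37 CPM per kb). For pyrimidine nucleotides, Slc25a33 was above Slc25a36 in 37 of 43 libraries (8.35 and 2.43 CPM per kb). With no length, Slc25a36 had the higher median (23.3 CPM against 15.8 CPM for Slc25a33). Among carboxylate carriers, Slc25a1 was above Slc25a11 in 35 of 43 libraries and Slc25a11 above the dicarboxylate carrier Slc25a10 in 37 of 43. The oxodicarboxylate carrier Slc25a21 had counts in 7 libraries. Of the uncoupling protein-like members, Slc25a30 (4.69 CPM per kb) was above Slc25a27 in 38 and above Slc25a14 in 41 of 43 libraries.

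Of other cofactor carriers, the folate and FAD carrier Slc25a32 had a median of 5.97 CPM per kb, the peroxisomal carrier Slc25a17 3.24, the coenzyme A carrier Slc25a42 2.51 and Slc25a16 1.99 CPM per kb. Of the remaining amino acid carriers, Slc25a44, a carrier of branched-chain amino acids, had a median of 5.83 CPM per kb, the acylcarnitine carrier Slc25a20 2.58, the glycine carrier Slc25a38 2.47 and the ornithine carrier Slc25a15 1.47 CPM per kb. The S-adenosylmethionine carrier Slc25a26 was near its floor, with a median of 0.475 CPM. The ornithine carrier Slc25a2 and the basic amino acid carrier Slc25a29 had medians of 0 CPM and counts in 10 and 20 libraries. Among members with other or no settled substrates, the outer membrane protein Slc25a46 had the highest median (4.24 CPM per kb), followed by Slc25a45 (1.77), Slc25a35 (0.653) and Slc25a53 (0.377), while Slc25a34 and Slc25a47 had medians of 0 CPM. A count of 0 allows up to 3 counts of a library, which is 1.84 CPM in the shallowest and 0.0608 CPM in the deepest library, for counting error only.

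Between the sexes, the folate and FAD carrier Slc25a32 rose in female EC and no other member passed the test. Slc25a32 ran from 24.6 to 161.3 CPM in 16 female libraries (median 44.1) and from 10.6 to 65.7 CPM in 27 male libraries (median 33.8). The groups overlapped, with 4 female libraries above every male library. The fitted difference, female minus male, was 0.83 on the log2 scale (SE 0.23, adjusted p = 0.0225 by edgeR's quasi-likelihood test over 29120 genes). That is 1 of 44 members called against 2.85% of all genes tested. The fit had no term for strain, region or title tag. DESeq2 also called Slc25a32 and no other member (log2 difference 0.69, adjusted p = 0.0307), against 3.54% of all genes. The call was lost under many alternatives: it passed in 8 of 20 settings, with log2 fold changes from 0.47 to 0.92 and adjusted p from 0.00422 to 0.532. It was lost without 129S1/SvImJ (adjusted p = 0.0732), C57BL/6J (0.0615), DBA/2J (0.114), NOD/ShiLtJ (0.0504) or WSB/EiJ (0.145). In these fits 1.8% to 2.51% of all genes were called. It was also lost with the rRNA-like share as a covariate (log2 fold change 0.84, adjusted p = 0.532), where 0.226% of all genes were called. The title tag moved with sex, 15 of 16 female libraries being titled high, and Slc25a32 was higher in the library titled high in 10 of 13 male sets. Among libraries titled high, its log2 difference between the sexes was 0.47 (adjusted p = 0.404), and 1.73% of all genes were called. The astrocyte list had a mean of 5.82 ± 0.47 in female and 6.33 ± 0.68 in male libraries (SD, n = 16 and 27), and its part in the result was not tested.

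A further 7 members had an unadjusted p under 0.05 in this comparison without passing the adjusted threshold. In all, 8 of 44 members and 3819 of 29120 genes had an unadjusted p under 0.05. Slc25a27, the UCP4 of neurons, had a female median of 4.94 CPM (0.244 to 28.3) and a male median of 1.01 CPM (0 to 20.96), with a log2 difference of 1.75 (SE 0.73, adjusted p = 0.236). It turned to -0.81 with the rRNA-like share as a covariate. Slc25a5, an X-linked gene, had medians of 73.5 CPM in female and 51.5 CPM in male libraries (log2 difference 0.47, SE 0.21, adjusted p = 0.304). Slc25a24 (0.56) and Slc25a44 (0.67) were also fitted higher in female libraries, and Slc25a22 (-0.94), Slc25a30 (-0.74) and Slc25a23 (-0.41) lower. Slc25a23 passed in this comparison when WSB/EiJ was left out (log2 difference -0.65, adjusted p = 0.0477). The median of the fitted differences was -0.25 over the members and -0.12 over all genes. With DESeq2 size factors the median over all genes moved to -0.24, and Slc25a32 then had a log2 difference of 0.69 (adjusted p = 0.104).

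**Figure D2:**
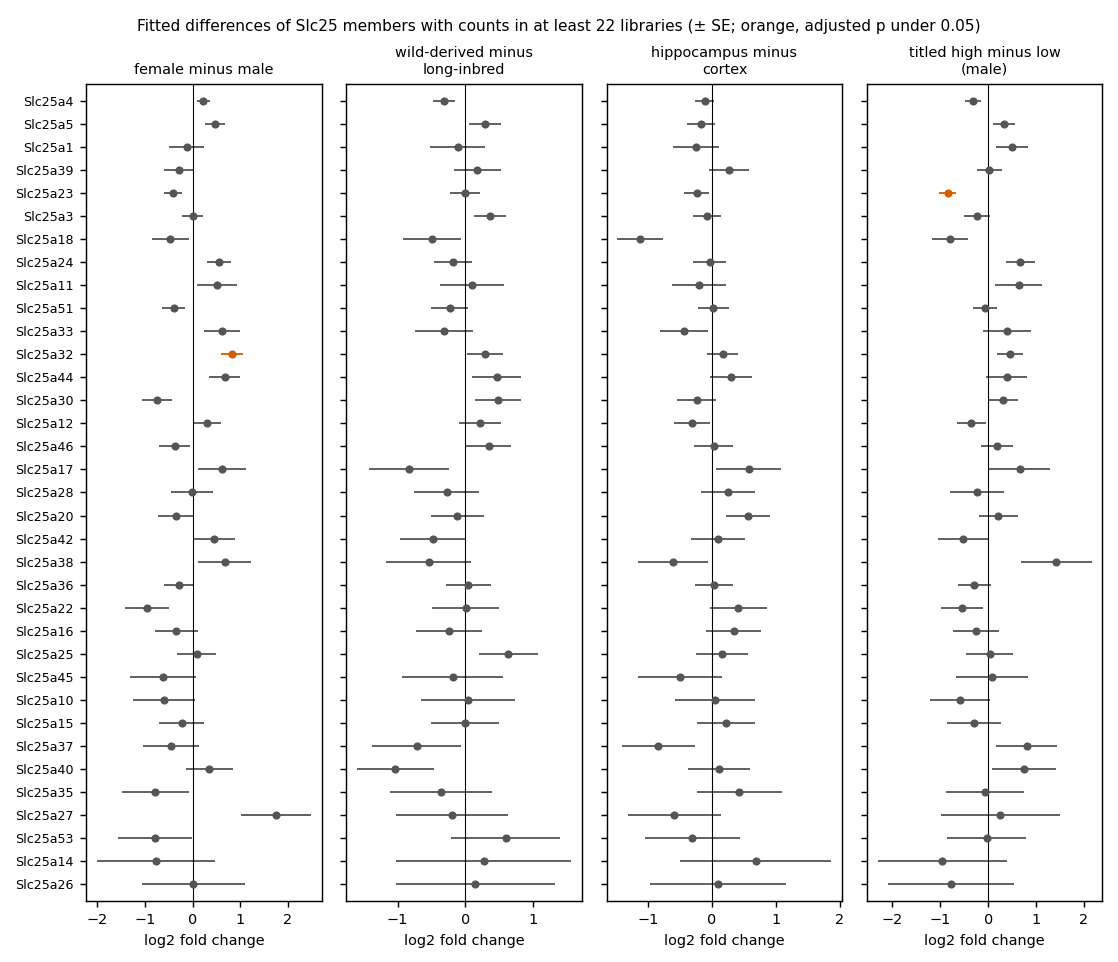
Fitted log2 fold changes of 35 Slc25 members with counts in at least 22 libraries, in 4 comparisons (sex, origin, region, and title tag within male libraries). Points are fitted values and bars are ± 1 SE; the orange points, Slc25a32 for sex and Slc25a23 for title tag, are those with an adjusted p under 0.05.

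Between wild-derived and long-inbred strains, no member was called by edgeR, against 0.749% of all genes, and none by DESeq2, against 1.36%. At an unadjusted p under 0.05 there were 0 members by edgeR and 2 by DESeq2, Slc25a4 and Slc25a40. Over all 29120 genes these numbers were 2041 and 1958. The nearest by edgeR was Slc25a4, with a median of 128.3 CPM in 12 wild-derived (50.3 to 164.6) and 151.9 CPM in 31 long-inbred libraries (91.1 to 250.1). Its log2 difference was -0.32 (SE 0.16, adjusted p = 0.717). Slc25a3 lay the other way, with medians of 102.2 and 69.3 CPM (log2 difference 0.36, SE 0.23, adjusted p = 0.754). The median of the fitted differences was -0.15 over the members and -0.38 over all genes.

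Among the 7 strains no member passed the test, against 2.74% of 27542 genes. At an unadjusted p under 0.05 there were 6 of 44 members and 2615 of all genes. DESeq2 called 1 of 44, Slc25a4 (adjusted p = 0.0459), against 4.25% of all genes. Slc25a18 had the smallest p (adjusted p = 0.0836 by edgeR's test on the strain coefficients with sex as a term). In A/J it stood at 18.1, 40.3, 64.1, 72.6 and 95.7 CPM, and in DBA/2J at 5.60, 5.998, 16.05, 32.1 and 38.1 CPM. In CAST/EiJ it had a median of 6.79 CPM (2.46 to 53.4), in C57BL/6J 11.8 (0.228 to 25.7), in WSB/EiJ 24.1 (20.2 to 73.1), in 129S1/SvImJ 31.8 (3.65 to 72.5) and in NOD/ShiLtJ 41.8 (10.9 to 107.3). Every pair of strains overlapped. With region and title tag as further terms Slc25a18 passed (adjusted p = 0.00663), and over all settings its adjusted p ran from 0.00415 to 0.930. The astrocyte list had its highest median in A/J too (6.81 on the log2 scale, against 5.77 to 6.44 in the other strains), and its part in the result was not tested.

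Slc25a4 had its highest median in A/J (170.3 CPM, 127.0 to 244.8) and its lowest in WSB/EiJ (115.8 CPM, 50.3 to 128.2). In between lay NOD/ShiLtJ (159.9), 129S1/SvImJ (151.9), DBA/2J (151.0), CAST/EiJ (149.4) and C57BL/6J (127.5). Of 21 pairs of strains, 2 did not overlap for Slc25a4, WSB/EiJ with CAST/EiJ and with NOD/ShiLtJ, which are not neighbours in the order. The endothelial list was also lowest in WSB/EiJ, with a mean of 8.80 ± 0.28 (SD, n = 6) against means of 9.26 to 9.50 in the other strains, and its part in the level of Slc25a4 was not tested. Slc25a3 stood highest in CAST/EiJ (median 113.2 CPM, 96.5 to 135.4), where every library lay above every 129S1/SvImJ library (median 49.6 CPM, 28.1 to 89.1). Every CAST/EiJ library also lay above every DBA/2J library (highest 86.8 CPM), and these were the 2 of 21 pairs that did not overlap. The share of all genes with pairs of strains that do not overlap was not counted, so these separations are descriptions. In WSB/EiJ, Slc25a3 ran from 0.613 to 113.3 CPM. Slc25a3 and Slc25a4 did not pass the test (adjusted p = 0.407 and 0.526).

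The remaining members with a p under 0.05 among strains were Slc25a25, Slc25a12 and Slc25a47. Slc25a25 had a median of 30.97 CPM in WSB/EiJ (13.5 to 85.2) and 6.89 CPM in C57BL/6J (0 to 37.7). Slc25a12 ran from a median of 47.0 CPM in 129S1/SvImJ (32.2 to 71.9) to 16.6 CPM in DBA/2J (1.61 to 33.4). Slc25a47 had counts in 6 of 9 libraries of 129S1/SvImJ (median 4.22 CPM) and in none of 5 of DBA/2J. None of these passed adjustment, with adjusted p from 0.274 to 0.392.

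For the other members of high level, the strain medians of Slc25a5 went from 44.6 CPM in DBA/2J to 85.7 CPM in CAST/EiJ, of Slc25a23 from 61.7 CPM in C57BL/6J to 103.4 CPM in DBA/2J, and of Slc25a32 from 28.8 CPM in CAST/EiJ to 54.9 CPM in WSB/EiJ. Slc25a39 went from 20.9 CPM in C57BL/6J to 59.0 CPM in A/J, Slc25a1 from 25.2 CPM in 129S1/SvImJ to 54.6 CPM in A/J, and Slc25a51 from 28.6 CPM in WSB/EiJ to 59.5 CPM in NOD/ShiLtJ. Slc25a24 went from 23.7 CPM in WSB/EiJ to 53.3 CPM in NOD/ShiLtJ, and Slc25a11 from 11.1 CPM in 129S1/SvImJ to 25.2 CPM in DBA/2J. In each of these 8 members every pair of strains overlapped.

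The strain medians of Slc25a20 lay between 10.3 CPM (NOD/ShiLtJ) and 21.99 CPM (C57BL/6J), of Slc25a22 between 3.21 CPM (C57BL/6J) and 18.2 CPM (129S1/SvImJ), and of Slc25a10 between 1.80 CPM (129S1/SvImJ) and 12.05 CPM (CAST/EiJ). Slc25a28 lay between 4.74 CPM (A/J) and 13.9 CPM (129S1/SvImJ), and Slc25a37 between 0.122 CPM (WSB/EiJ) and 16.8 CPM (NOD/ShiLtJ). None of these members passed the test among strains.

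**Figure D3:**
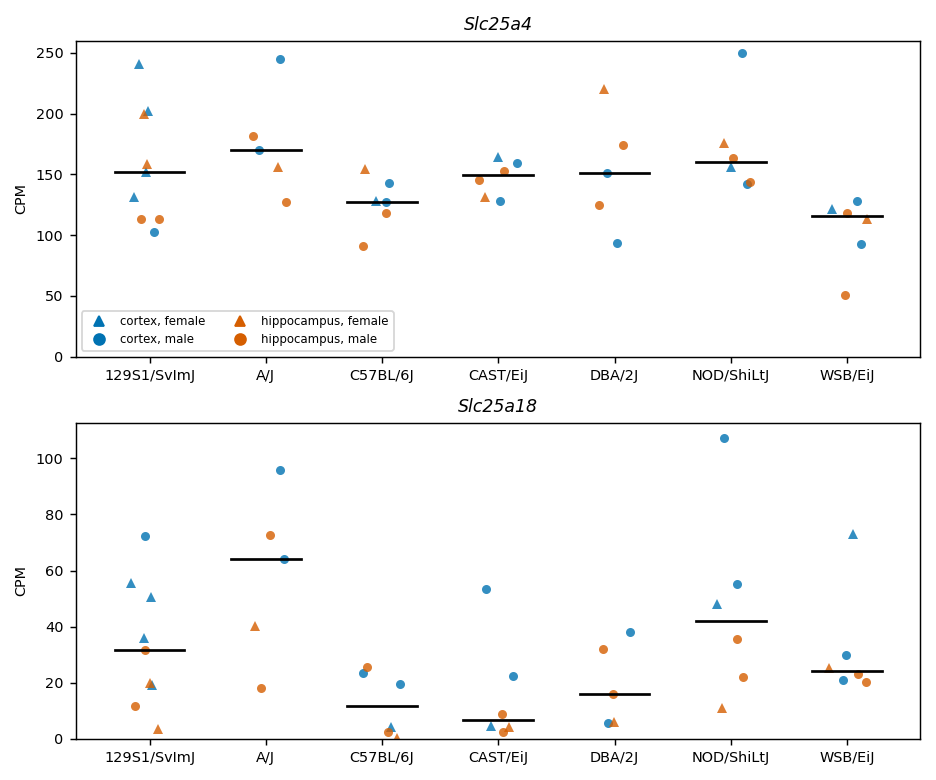
Level in CPM of Slc25a4 (top) and Slc25a18 (bottom) in every library by strain. Blue points are cortex and orange points hippocampus, triangles are female and circles male mice, and black bars are strain medians; for Slc25a18 every pair of strains overlaps, and the medians run from 6.79 CPM in CAST/EiJ to 64.1 CPM in A/J.

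Between cortex and hippocampus, no member was called by edgeR, against 0.0755% of all genes, or by DESeq2, against 0.209%. At an unadjusted p under 0.05 there was 1 member by edgeR, Slc25a18, and 2 by DESeq2, Slc25a18 and the sparse Slc25a2. Over all 29120 genes these numbers were 1631 and 968. Slc25a18 had a median of 38.1 CPM in 21 cortex libraries (4.24 to 107.3) and of 18.9 CPM in 22 hippocampus libraries (0.228 to 72.6). The fitted difference, hippocampus minus cortex, was -1.12 on the log2 scale (SE 0.35, unadjusted p = 0.00217, adjusted p = 0.404). Among 18 sets of libraries of the same strain, sex and title tag, Slc25a18 was higher in cortex in 16. The exceptions were the male C57BL/6J set titled low (23.3 CPM in cortex, 25.7 in hippocampus) and the male DBA/2J set titled high (5.60 and 16.05 CPM). The widest difference in CPM was in NOD/ShiLtJ males titled low, with 107.3 CPM in cortex and 35.7 CPM in hippocampus. The share of all genes that reach 16 of 18 sets was not counted.

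Slc25a18 passed for region when strain, sex and title tag were terms of the fit (log2 difference -1.31, adjusted p = 0.0404) and when all libraries were drawn down to the smallest total (-1.18, adjusted p = 0.0202). Over 19 settings the difference kept its sign, from -1.31 to -0.99. The astrocyte list was higher in cortex in 13 of 18 sets, and with that list as a covariate the difference of Slc25a18 was -1.0045 (SE 0.30, adjusted p = 0.369). Atp6v1e1, the gene that overlaps Slc25a18 on the other strand, was higher in cortex in 8 of 18 sets and had medians of 41.1 CPM in cortex and 45.7 CPM in hippocampus. The pericyte list and lists of oligodendrocyte and fibroblast markers were each higher in hippocampus in 15 of 18 sets, and their part was not tested.

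The abundant carriers lay close together in the regions. Slc25a4 had medians of 143.3 CPM in cortex and 144.7 CPM in hippocampus (log2 difference -0.11, SE 0.14) and was higher in cortex in 9 of 18 sets. Slc25a5 had medians of 64.9 and 56.3 CPM, Slc25a3 of 78.6 and 70.2 CPM, and Slc25a39 of 42.1 and 48.7 CPM. The acylcarnitine carrier Slc25a20, with medians of 10.5 CPM in cortex and 16.7 CPM in hippocampus, was higher in hippocampus in 13 of 18 sets, and Slc25a38 was higher in cortex in 13 of 18. Neither passed the test, and the share of all genes that reach 13 of 18 sets was not counted. The median of the fitted differences was 0.04 over the members and 0.03 over all genes.

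Between title tags, read in male libraries only, Slc25a23 fell in libraries titled high and no other member passed the test. Slc25a23 ran from 44.8 to 118.9 CPM in 14 libraries titled high (median 73.5) and from 81.3 to 233.6 CPM in 13 titled low (median 126.9). The groups overlapped, but 9 libraries titled high lay below every library titled low. The fitted difference, high minus low, was -0.85 on the log2 scale (SE 0.18, adjusted p = 0.00431 by edgeR over 27529 genes). That is 1 of 44 members against 1.06% of all genes tested. DESeq2 called the same member and no other, against 2.31% of all genes.

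Among 13 sets of male libraries of the same strain and region, Slc25a23 was higher in the library titled low in 13. The widest difference in CPM was in A/J, with 233.6 CPM titled low and 83.5 CPM titled high in hippocampus and 202.8 and 74.8 CPM in cortex. The narrowest was in DBA/2J cortex, with 135.3 and 103.4 CPM. In NOD/ShiLtJ cortex the levels were 160.9 and 46.8 CPM, a wider ratio than in A/J. The share of all genes that reach 13 of 13 sets was not counted, so this order is a description. The call held in 17 of 21 settings. It was lost without A/J (log2 difference -0.72, adjusted p = 0.0656), within cortex (-0.82, adjusted p = 0.208) and within hippocampus (-0.91, adjusted p = 0.345). It was also lost with the astrocyte list as a covariate (-0.67, adjusted p = 0.475). Few genes were called in these 4 settings: 0.498%, 0.121%, 0.0208% and 0.0881% of all genes, in that order, against 1.06% in the main test. The fit with the astrocyte list also left out 5965 genes.

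Slc25a18 was also higher in the library titled low in 13 of 13 sets, for example at 23.1 and 20.2 CPM in WSB/EiJ hippocampus, 72.6 and 18.1 CPM in A/J hippocampus and 25.7 and 2.52 CPM in C57BL/6J hippocampus. Its medians were 19.8 CPM titled high (2.46 to 72.5) and 32.1 CPM titled low (8.97 to 107.3), and the log2 difference was -0.80 (SE 0.37, adjusted p = 0.538). With strain and region as terms it passed (-1.09, adjusted p = 0.0442), and with the astrocyte list as a covariate it turned to 0.51 (adjusted p = 1). Slc25a12 was higher in the library titled low in 10 of 13 sets, Slc25a22 in 11 and Slc25a25 in 11. The erythroid-type mitoferrin Slc25a37 went the other way and was higher in the library titled high in 11 of 13 sets. None of these 4 passed the test. The share of all genes that reach 10, 11 or 13 of 13 sets was not counted, so these orders are descriptions.

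**Figure D4:**
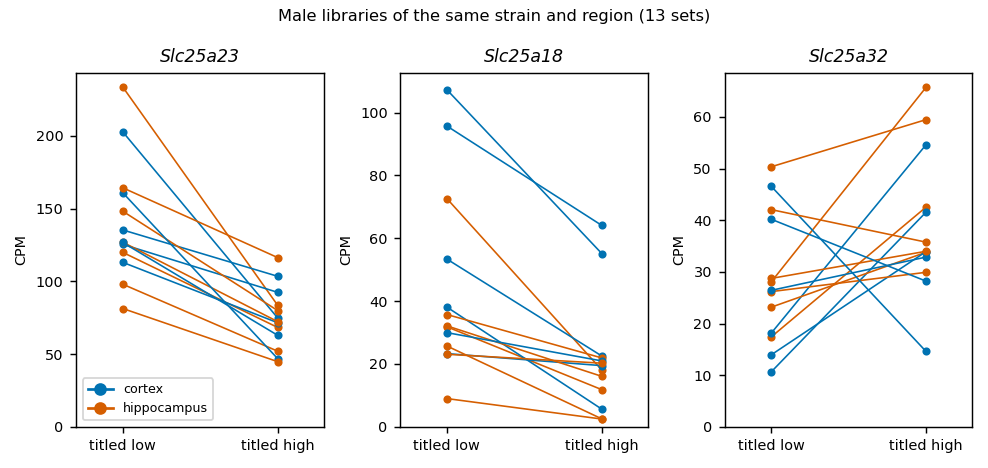
Levels in CPM of Slc25a23, Slc25a18 and Slc25a32 in 13 sets of male libraries of the same strain and region, titled low (left) and high (right). Lines join the libraries of a set, blue for cortex and orange for hippocampus; Slc25a23 and Slc25a18 are higher in the library titled low in 13 of 13 sets, and Slc25a32 in 3 of 13.

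Slc25a24 was fitted higher in libraries titled high (medians 36.1 and 22.025 CPM, log2 difference 0.67, SE 0.30, adjusted p = 0.517). Slc25a4 had medians of 127.1 CPM titled high and 145.6 CPM titled low (log2 difference -0.33, SE 0.17, adjusted p = 0.638). Slc25a21, with an unadjusted p of 0.0323, had counts in too few libraries for its fitted value to be read. The median of the fitted differences was 0.13 over the members and 0.04 over all genes.

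Other measures moved with the title tag in the same 13 sets. The astrocyte list was higher in the library titled low in 13 (mean 6.80 ± 0.46 titled low, n = 13, and 5.90 ± 0.56 titled high, n = 14; SD) and its summed level ran from 3188 to 19792 CPM titled low and from 1494 to 7324 CPM titled high. The neuronal list was higher titled low in 13 sets, the erythroid list higher titled high in 13, and the endothelial list higher titled high in 11. The oligodendrocyte and microglial lists were higher titled low in 12 and 11 sets, and the smooth muscle list higher titled high in 10. The share of counts on mitochondrially encoded genes was higher in the library titled low in 13 of 13 sets, with medians of 15.9% titled low and 10.7% titled high. Their part in the result of Slc25a23 was not tested beyond the covariate above. Atp6v1e1 was higher titled high in 7 and titled low in 6 of 13 sets.

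Neither the sex difference nor the title tag difference of a member was shown to differ between regions. Of the interaction of sex with region, edgeR called 0 members and 0.00343% of all genes, and of title tag with region 0 members and 0% of all genes. At an unadjusted p under 0.05 these were 3 and 1 members, and 1077 and 563 genes. DESeq2 was not run on these interactions.

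Relations with marker lists were computed for 4 members on log2(CPM + 1), each over all libraries and within each sex, 12 in all. Slc25a18 went with the astrocyte list over 43 libraries (Pearson's r = 0.71, Spearman's rho = 0.67), with a permutation p of 1e-05 for each, the smallest that 100000 resamples can give (adjusted p = 6e-05 and 0.00012). Without the 2 libraries farthest from the median of the list, r was 0.66. Within male libraries r was 0.76 and rho 0.73 (permutation test, adjusted p = 6e-05 and 0.00018), and within female libraries r was 0.64 and rho 0.57 (adjusted p = 0.0332 and 0.0587). The points share library depth and scaling. The permutations, here and for the other members below, were not kept within strain, region or title tag. Their p therefore does not measure a relation within these groups.

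**Figure D5:**
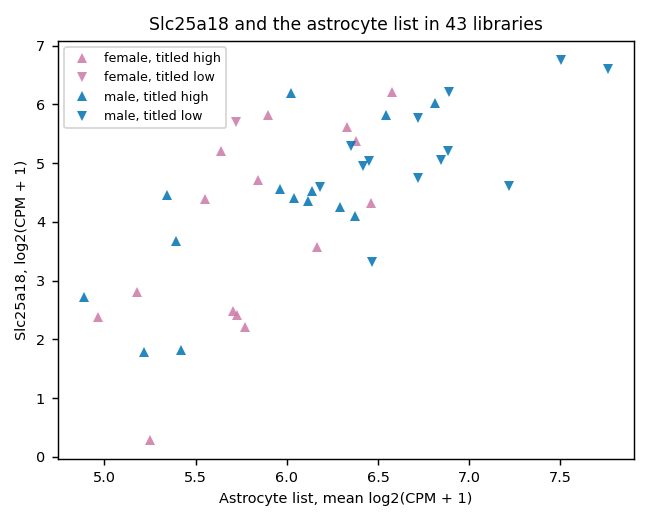
Slc25a18 against the mean of 10 astrocyte markers in 43 libraries, both as log2(CPM + 1). Pink is female and blue is male, and triangles pointing up and down are libraries titled high and low; the relation has r = 0.71 over all libraries, 0.76 in male and 0.64 in female libraries.

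Slc25a37 went with the erythroid list over all libraries (r = 0.37, adjusted p = 0.0451; rho = 0.38, adjusted p = 0.0526; permutation tests), and r without the 2 farthest libraries was 0.39. Within the sexes this did not pass adjustment (male r = 0.41, adjusted p = 0.0813; female r = 0.30, adjusted p = 0.382). The relations of Slc25a22 and Slc25a27 with the neuronal list did not pass adjustment over all libraries (r = 0.14, adjusted p = 0.456, and r = 0.18, adjusted p = 0.382; permutation tests). For Slc25a27, r was 0.51 and rho 0.59 in female libraries (adjusted p = 0.0909 and 0.0574; permutation tests) and r was -0.037 in male libraries (adjusted p = 0.857).

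Of 35 other genes of mitochondrial transport in a fixed list, 34 passed the filter on low counts, Ucp1 being the exception. For sex 1 of 34 was called, against 2.85% of all genes: Vdac2, a pore of the outer membrane, with medians of 93.6 CPM in female (47.6 to 333.4) and 59.8 CPM in male libraries (11.3 to 130.9). Its log2 difference was 0.74 (SE 0.21, adjusted p = 0.0325), and like that of Slc25a32 it passed in 8 of 20 settings. It was lost without A/J (adjusted p = 0.0517), C57BL/6J (0.0886), DBA/2J (0.175) or WSB/EiJ (0.398). For origin, region, title tag and strain 0 of 34 were called by edgeR, and 2, 2, 4 and 5 had an unadjusted p under 0.05. Over all genes, 2041 of 29120, 1631 of 29120, 2233 of 27529 and 2615 of 27542 had one. Nearest for origin by edgeR was Mcub (log2 difference -4.54, SE 1.29, adjusted p = 0.0691), and for region Ucp3 (-6.08, SE 1.62, adjusted p = 0.137). Among strains Mcub (adjusted p = 0.0772) and Vdac3 (0.0789) were nearest by edgeR. Nearest for title tag was the sideroflexin Sfxn5, with medians of 78.5 CPM titled high and 109.5 CPM titled low (log2 difference -0.83, SE 0.24, adjusted p = 0.0761). Sfxn5 passed in 6 of 21 settings for title tag (adjusted p from 0.00105 to 1), in 4 of 20 for sex and in 2 of 19 for region. For title tag it passed with DESeq2 (adjusted p = 0.0454) and without WSB/EiJ (-1.04, adjusted p = 0.0174). Sfxn5 was also fitted lower in hippocampus (-0.76, adjusted p = 0.388), with medians of 91.4 CPM in cortex and 63.1 CPM in hippocampus.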

How the data were processed

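EC were sorted by flow cytometry and their RNA, depleted of rRNA, was sequenced from one end in 43 libraries prepared with a stranded kit. The methods name no molecular identifiers. Reads were aligned by the authors (HISAT2 2.1.0, mm10) and counted per gene with featureCounts (Subread 1.4.4) who deposited the raw counts without normalization for 54532 genes. Of these, 54495 matched GENCODE M21, which gave positions and exon lengths. The strand setting of the counting is not given in the sources used here.

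For levels in CPM, library sizes were scaled with TMM factors (edgeR 4.0.16, R 4.3.3). Genes reaching 0.5 CPM in 1 library or more of a comparison were tested two-sided with edgeR's quasi-likelihood test (trended dispersion, bias-adjusted deviances) and Benjamini-Hochberg adjustment at 0.05. Fits with several terms left out genes fitted above 5 times their largest count. DESeq2 1.42.0 was the alternative. Permutations were drawn with numpy 2.4.6, with ranks and adjustment from scipy 1.17.1. Marker and relation levels are means of log2(CPM + 1), with a pseudocount of 1. Promoters are from RefSeq. Programs were tested on simulated data.

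All members passed the filter in the 5 main comparisons. 1 member is not reported here by name or level. Every other member is named, and group values are given for members that passed in a comparison, the 10 highest per kb and a set chosen by role. Other genes of mitochondrial transport come from a fixed list. Members, lists and tests were chosen with earlier results of these data known. Intervals and floors cover counting error only. No column of other samples was present.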

Additional observations from a re-analysis of the deposited data

Results flagged for a closer look

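In each of 133 groups (19 members in 7 strains) the highest and the lowest library were set against the rest of their strain, and 22 values stood apart by Dixon's ratio. Chance flags about 1 in 20 groups where values are normally spread. For a member near 0 in the other libraries of a strain, as Slc25a13 is, any library with counts gives a ratio near 1, so its values are given as a description. The values lie in 14 libraries, and 21 of them are the highest and 1 the lowest of their strain. Since sex, region and title tag vary within a strain, a value that stands apart can also follow these labels.

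The female WSB/EiJ cortex library titled high held 6 of the 22. In it Slc25a12 stood at 140.55 CPM (next 45.0), Slc25a5 at 164.77 CPM (next 64.9), Slc25a13 at 38.9 CPM (next 0.603), Slc25a18 at 73.1 CPM (next 29.96), Slc25a11 at 78.7 CPM (next 17.3) and Slc25a10 at 19.03 CPM (next 6.23).

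Slc25a13, the citrin that most libraries lacked, had its highest level of the strain in the male A/J hippocampus library titled low (5.27 CPM), the male C57BL/6J cortex library titled high (4.60 CPM), the male DBA/2J hippocampus library titled high (7.07 CPM) and the female NOD/ShiLtJ cortex library titled high (3.36 CPM). Slc25a25 was highest in the male A/J hippocampus library titled low (33.6 CPM) and in the male C57BL/6J cortex library titled low (37.7 CPM). The latter also held the highest C57BL/6J value of Slc25a10 (20.3 CPM).

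The male 129S1/SvImJ hippocampus library titled low had the highest values of its strain for Slc25a10 (57.9 CPM) and Slc25a28 (46.3 CPM). Slc25a32 stood apart in the female 129S1/SvImJ cortex library titled low (135.9 CPM) and in the female DBA/2J hippocampus library titled high (57.2 CPM), both on the side of its higher level in female libraries. Slc25a4 reached 250.1 CPM in the male NOD/ShiLtJ cortex library titled low. Slc25a37 reached 13.7 CPM in the male WSB/EiJ cortex library titled low, Slc25a39 81.97 CPM in the male C57BL/6J hippocampus library titled high, and Slc25a1 97.1 CPM in the male DBA/2J cortex library titled high. The only low value was that of Slc25a11 in the male DBA/2J hippocampus library titled low, 0.142 CPM on 1 count against 20.997 CPM in the next library.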

How the results depend on the processing

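The number of Slc25 members called depended on the setting. Percentages after a setting give the share of all genes tested that was called. For sex (1 in the main test, 2.85%) it was 0 with DESeq2 size factors (2.01%) and with the other label terms as covariates (2.07%). It was also 0 in libraries titled high (1.73%), within cortex (0.994%) and within hippocampus (1.19%). The number was 0 again with the rRNA-like share as a covariate (0.226%) and with counts drawn down to the smallest total (2.61%). It was 3 with edgeR's default deviances. For region (0, 0.0755%) it was 1 with covariates (0.17%), 1 with drawn down counts (0.393%) and 3 with default deviances. For title tag (1, 1.06%) it was 2 with covariates (2.25%), 0 within cortex (0.121%) and 0 within hippocampus (0.0208%). It was 0 with the astrocyte list as a covariate (0.0881%) and 5 with default deviances. For strain (0, 2.74%) it was 1 with DESeq2 (4.25%), 1 with covariates (3.45%), 1 with drawn down counts (3.79%) and 3 with default deviances. Leaving out 1 strain gave 0 to 1 for sex (1.8% to 2.95%) and 0 to 1 for title tag (0.47% to 1.5%). It gave 0 for region (0.0394% to 0.103%) and for origin (0.627% to 0.98%). Without WSB/EiJ the member called for sex was Slc25a23 and not Slc25a32. Leaving out 1 library of A/J or DBA/2J gave 0 for strain (2.39% to 2.82%). For origin every setting gave 0 (0.0317% to 23%). Default deviances called 36.0% of all genes for sex, 27.6% for region, 30.2% for title tag and 14.4% for strain, so their member counts lie below the share over all genes. With them, calls fell also on Slc25a31 and Slc25a54, which have counts in 1 library each. In fits with covariates, genes were dropped and so fewer were tested. Without the male WSB/EiJ hippocampus library titled low, the numbers called were as in the main tests. The cause of the other changes was not tested.

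Of 16 fold changes of named genes followed under the alternatives, 3 values turned: Slc25a18 for title tag (0.51) and Sfxn5 for title tag (0.19) with the astrocyte list as a covariate, and Slc25a27 for sex (-0.81) with the rRNA-like share as a covariate. The correlation of Slc25a27 with the neuronal list turned to -0.037 in male libraries. Alternatives with the rRNA-like share, drawn down counts, default deviances, the astrocyte list, without the male WSB/EiJ hippocampus library titled low, and title tag over all libraries were chosen after seeing the data. No paired analysis was possible because no label names the mouse behind a library. Members with medians of 0 CPM rest on few libraries, and the deeper female libraries resolve low members better than the male ones.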
